A study of Mus musculus with 20 samples.

Results

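The genes described here encode the subunits of the NMDA receptor, the glutamate-gated calcium channel of excitatory synapses. There are 7 such genes in the mouse: Grin1, Grin2a, Grin2b, Grin2c, Grin2d, Grin3a and Grin3b. Transcript clusters, groups of array probes that together read out 1 gene or a stretch of it, were taken as members when their annotation gave a single gene symbol and that symbol was one of the 7. The rule found 6 of the 7 genes, with 1 transcript cluster each, out of 28853 transcript clusters and out of 19938 genes with a transcript cluster of their own. Grin1, the subunit that every NMDA receptor needs, is paired with no transcript cluster by this rule and was not analysed here. In the RefSeq annotation of assembly GRCm38.p6, Grin2a lies on chromosome 16, Grin2b on 6, Grin2c on 11, Grin2d on 7, Grin3a on 4 and Grin3b on 10.

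An NMDA receptor is a tetramer that pairs the GluN1 subunit with GluN2 or GluN3 subunits, encoded by the Grin2 and Grin3 genes. GluN2 subunits bind glutamate and set how long the channel stays open, and GluN2B is the earlier form in forebrain development, joined by GluN2A after birth. GluN3 subunits bind glycine and lower the calcium permeability of the channel. Calcium entry through the receptor activates calmodulin, which stimulates the adenylyl cyclases AC1 and AC8, and the receptor is needed in both the amygdala and the hippocampus for learning of contextual fear.

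The 20 arrays (Affymetrix Mouse Gene 1.0 ST) were hybridized with RNA of male mice 2 months old, WT mice of the C57BL/6 strain and DKO mice with both AC1 and AC8 knocked out. The DKO lines were also kept on an inbred C57BL/6 background. Tissue punches came from the amygdala and the hippocampus at baseline, before conditioned fear (CF) training with one 0.7 mA foot shock of 2 sec, and at 0 hr, 1 hr, 48 hr and 1 wk after it, the last following a test trial in the training chamber. There was 1 array for each region, genotype and time point, with RNA pooled from 5 to 10 mice, so that each of the 4 groups of region and genotype holds 5 arrays that differ in time point. WT and DKO mice were not from the same litters. Parents and pups of the DKO colony received doxycycline up to weaning, and some DKO mice carried either tetop-AC8 or CaMKII-tTA alone, so that genotype cannot be told apart from these differences in origin. Levels are given as RMA values in log2 units, where a difference of 1 is a doubling. Groups were compared with limma over all transcript clusters, with Benjamini-Hochberg adjusted p-values.

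Several facts of the series touch the values below. The array medians lay between 6.64 and 6.83. In DKO mice the targeted gene Adcy8 was lower by limma in the amygdala (log2 difference −1.45, adjusted p = 1.65e-06) and the hippocampus (−2.00, adjusted p = 1.76e-07), and so was Adcy1 (−0.56, adjusted p = 0.0181, and −1.57, adjusted p = 5.22e-08). The mean of 11 marker genes of hippocampal neurons was 7.69 to 7.96 on the hippocampus arrays and 6.78 to 7.27 on the amygdala arrays, with the top of the amygdala range on the WT 48 hr array. The amygdala punches carried more of 13 striatal marker genes (8.28 to 8.98 against 7.53 to 7.76), and 12 markers of GABA neurons were at 8.57 to 8.82 in the amygdala against 8.26 to 8.51 in the hippocampus. The hippocampus punches carried more of 11 thalamic markers (7.37 to 8.16 against 7.13 to 7.29). Within a region these markers also differed by genotype, with overlapping ranges. The thalamic markers in the hippocampus read 7.37 to 7.86 in WT and 7.75 to 8.16 in DKO mice. The striatal markers in the amygdala read 8.42 to 8.98 in WT and 8.28 to 8.46 in DKO mice. One array stood apart: on the DKO amygdala array at 48 hr the 75th percentile of all values was 7.75, against 7.96 to 8.05 on the 5 WT amygdala arrays. In tissue punches, fewer cells of a type and less RNA per cell cannot be told apart.

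Grin2a, the subunit that joins forebrain receptors after birth, was the member with the greatest difference between the regions. In the WT amygdala it read 9.08 at baseline, 9.23 at 0 hr, 9.19 after 1 hr, 9.48 after 48 hr and 8.96 after 1 wk. In the DKO amygdala, in the same order of time points, it read 9.16, 9.02, 9.12, 8.35 and 9.14. Thus 9 of the 10 amygdala arrays lay close to 9 or above it, and the DKO array at 48 hr lay far below the rest. In the hippocampus the values of WT mice were 9.99 at baseline, 9.99 at 0 hr, 10.24 after 1 hr, 10.16 after 48 hr and 10.00 after 1 wk, and those of DKO mice were 10.06, 10.01, 10.23, 9.71 and 10.30. The lowest hippocampus array, DKO at 48 hr, was still above the highest amygdala array, WT at 48 hr.

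The Grin2a mean was 10.07 ± 0.17 (SD, n = 10 arrays) in the hippocampus and 9.07 ± 0.29 (SD, n = 10 arrays) in the amygdala. The log2 difference of 0.99 (standard error 0.093, 95% confidence interval 0.80 to 1.19) was a 1.99-fold higher level in the hippocampus, with an adjusted p of 1.09e-08 by limma. In this comparison 17.7% of all transcript clusters passed an adjusted p of 0.05 (8.95% of all as higher in the hippocampus and 8.78% of all as lower), and 3 of the 6 members did, 2 higher and 1 lower. Only 82 of the 28853 transcript clusters had a greater rise towards the hippocampus than Grin2a. Non-overlapping values of the kind seen for Grin2a, every hippocampus array above every amygdala array, occurred in 1.99% of transcript clusters. Without the DKO amygdala array at 48 hr the Grin2a difference was 0.92 (adjusted p = 2.00e-09).

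Grin2b, the subunit of the earlier forebrain receptor, went the same way by a smaller amount. On the WT amygdala arrays, from baseline to 1 wk, it read 9.85, 9.90, 9.81, 9.81 and 9.66, and on the DKO amygdala arrays 9.60, 9.70, 9.83, 9.35 and 9.66. In the hippocampus it read 9.91, 9.95, 10.13, 10.16 and 10.02 in WT mice and 9.98, 9.97, 10.12, 9.83 and 10.22 in DKO mice. The ranges of the regions met in a narrow band, since the DKO hippocampus array at 48 hr lay below the 2 highest amygdala values. The log2 difference of 0.31 (standard error 0.059, confidence interval 0.19 to 0.44), a 1.24-fold higher level in the hippocampus, passed the test with an adjusted p of 0.000305 by limma. Its difference was exceeded in the same direction by 1077 transcript clusters.

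Grin3a, the GluN3 subunit of the forebrain, went the opposite way. In the amygdala it read 8.38, 8.17, 8.28, 7.91 and 8.19 in WT mice from baseline to 1 wk, and 8.12, 8.19, 8.06, 7.79 and 8.20 in DKO mice. In the hippocampus it read 7.11, 7.39, 7.31, 7.48 and 7.59 in WT mice and 7.33, 7.41, 7.44, 7.26 and 7.26 in DKO mice. The regions did not overlap, and the lowest amygdala value, again the DKO array at 48 hr, stayed above the highest hippocampus value, that of WT mice at 1 wk. The difference of −0.77 (standard error 0.066, confidence interval −0.91 to −0.63) corresponded to a 1.71-fold lower level in the hippocampus, with an adjusted p of 2.40e-09 by limma. In 1.81% of transcript clusters every hippocampus array lay below every amygdala array, and 174 transcript clusters fell further than Grin3a.

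The region differences held in each genotype taken alone, with 1 exception. Among WT arrays, where 8.58% of transcript clusters passed, Grin2a differed by 0.89 (adjusted p = 2.84e-05) and Grin3a by −0.81 (adjusted p = 0.000111). Among DKO arrays, where 19% passed, the differences were 1.10 for Grin2a (adjusted p = 2.53e-05) and −0.73 for Grin3a (adjusted p = 5.78e-06). Grin2b was the exception: its difference of 0.40 in DKO mice passed (adjusted p = 0.00586), while that of 0.23 in WT mice missed the limit (adjusted p = 0.057, confidence interval 0.08 to 0.38), though it passed under 4 of 7 other settings of the fit. The genotypes did not differ past the limit in the Grin2b region difference (0.16, standard error 0.118, adjusted p = 0.42 by limma).

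**Figure D1:**
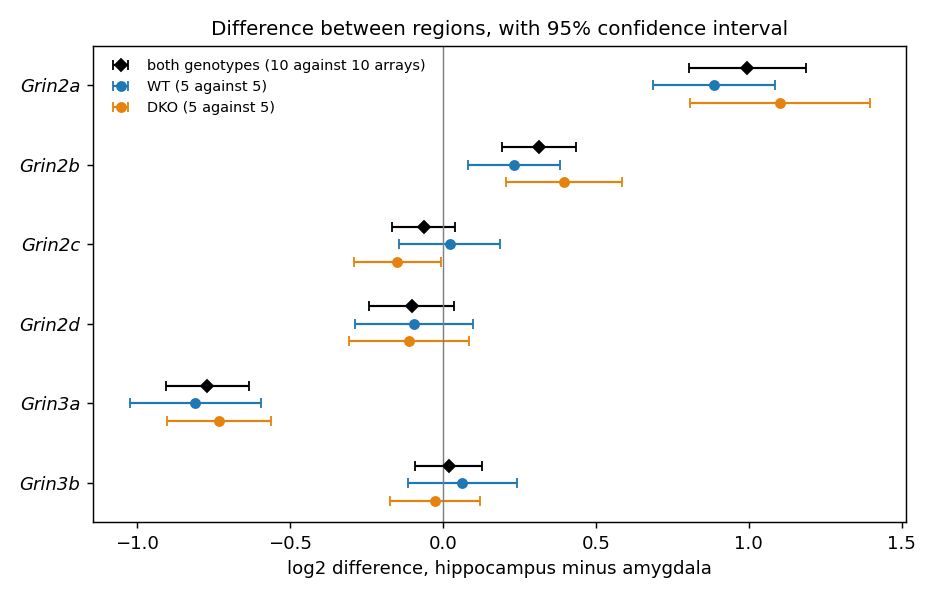
Log2 difference between hippocampus and amygdala for each measured subunit gene, with 95% confidence intervals from limma, for both genotypes together (black, 10 against 10 arrays), WT mice (blue) and DKO mice (orange, 5 against 5 arrays each). Grin2a (0.99) and Grin2b (0.31) lie to the right of 0, Grin3a (−0.77) lies to the left, and the joint intervals of the other 3 genes include 0.

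The remaining members, Grin2c, Grin2d and Grin3b, showed no difference between the regions past the limit. GluN2C is best known from cerebellar granule cells and GluN2D from interneurons and the early brain, while GluN3B is best known from motor neurons. Grin2c ranged from 6.61 to 7.02 in the amygdala and from 6.67 to 6.98 in the hippocampus (difference −0.06, confidence interval −0.17 to 0.04, adjusted p = 0.442). Grin2d ranged from 5.52 to 6.08 and from 5.54 to 5.91 (difference −0.10, confidence interval −0.24 to 0.04, adjusted p = 0.344). Grin3b ranged from 6.14 to 6.54 and from 6.20 to 6.51 (difference 0.02, confidence interval −0.09 to 0.13, adjusted p = 0.863). On each of the 3 genes the arrays of both regions overlapped over most of their range.

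As a guide to the level of genes that these tissues do not use, the 95th percentile of 1035 transcript clusters of olfactory receptor genes lay between 6.29 and 6.66 on the 20 arrays. Grin2a, Grin2b, Grin2c and Grin3a were above that level on 20 of 20 arrays. Grin2d and Grin3b were below it on every array, though above the median of the olfactory receptor clusters (4.61 to 4.84). This guide therefore does not set them apart from genes not in use, which limits what small changes of theirs can show. Levels of different probe sets are not comparable with each other, so no order among the members is given.

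RefSeq promoter sequences of GRCm38.p6 matched 3 of the 6 measured members, which were Grin2c, Grin2d and Grin3b. They are shown because AC1 and AC8 make cAMP, which acts on genes through the CRE motif, TGACGTCA. Each is the run of 100 bases before the transcript start of that table, which for all 3 lies inside the outer bounds of the gene, written 5′ to 3′ with GC boxes (GGGCGG, searched on both strands) in capitals.
Grin2c, chr11:115267244-115267343, minus strand: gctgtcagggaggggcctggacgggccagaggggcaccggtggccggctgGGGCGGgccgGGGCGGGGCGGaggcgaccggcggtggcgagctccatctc
Grin2d, chr7:45866682-45866781, minus strand: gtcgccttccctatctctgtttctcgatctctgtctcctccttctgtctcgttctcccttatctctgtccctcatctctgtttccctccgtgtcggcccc
Grin3b, chr10:79970624-79970723, plus strand: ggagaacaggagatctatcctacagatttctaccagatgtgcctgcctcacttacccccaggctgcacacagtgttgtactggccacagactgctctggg

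In the windows of 300 bases around these starts, 250 before and 50 after, Grin2c held 3 GC boxes and Grin2d and Grin3b none, where 35.7% of 32851 windows of this length held at least 1. None of the 3 windows held TGACGTCA, which 1.79% of all windows hold, nor its core TGACG, which lies within it and occurs in 20.8%. The GC content was 70% for Grin2c, 56% for Grin2d and 48.3% for Grin3b, with a median of 52.7% over all windows. These matches describe letters in 1 window per gene.

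The genes that act on the receptor were taken as 4 lists and compared between the regions as gene means, a comparison in which 20.6% of 19938 genes passed (10% of all genes as higher in the hippocampus and 10.5% as lower). Kinases and phosphatases of the receptor had 7 of 13 measured genes higher and 2 lower, with a median log2 difference of 0.18 against −0.02 over all genes. Those with the greatest rise were Prkca, a protein kinase C (1.01), Camk2b, the beta subunit of CaM kinase II (0.77), and Ptk2b, the kinase Pyk2 that acts upstream of Src at the receptor (0.72), with adjusted p-values of 7.78e-13, 1.59e-11 and 4.55e-11 by limma. The 2 lower genes were Ptpn5, the phosphatase STEP that removes phosphate from GluN2B (−0.60), and the casein kinase subunit Csnk2a2 (−0.17). Calcium signal effectors had 4 of 8 genes higher, led by Kalrn (0.54) and Rasgrf1 (0.49), both exchange factors for small GTPases, and Rasgrp1 (0.25), and 1 lower, the neuronal nitric oxide synthase Nos1 (−0.22). Their median was 0.19.

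Scaffold and trafficking partners leaned the other way, with 5 of 20 measured genes lower in the hippocampus, 2 higher and a median of −0.09. The lower ones included Actn2, an actin crosslinker that binds GluN1 and GluN2B (−0.66), Lin7a (−0.66), an adaptor of the complex that carries GluN2B along dendrites, and Dlg1, the scaffold SAP97 (−0.55). The higher ones were Lin7c (0.37), a close relative of Lin7a, and Dlg3, the scaffold SAP102 (0.17). Dlg4, which encodes PSD-95, had a difference of 0.01 (confidence interval −0.09 to 0.12). Of 9 genes for the supply and removal of the co-agonists D-serine and glycine, Psat1, an enzyme of serine synthesis, was higher (0.25), Slc1a4, a carrier of neutral amino acids including serine, was lower (−0.28), and 7 did not pass.

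**Figure D2:**
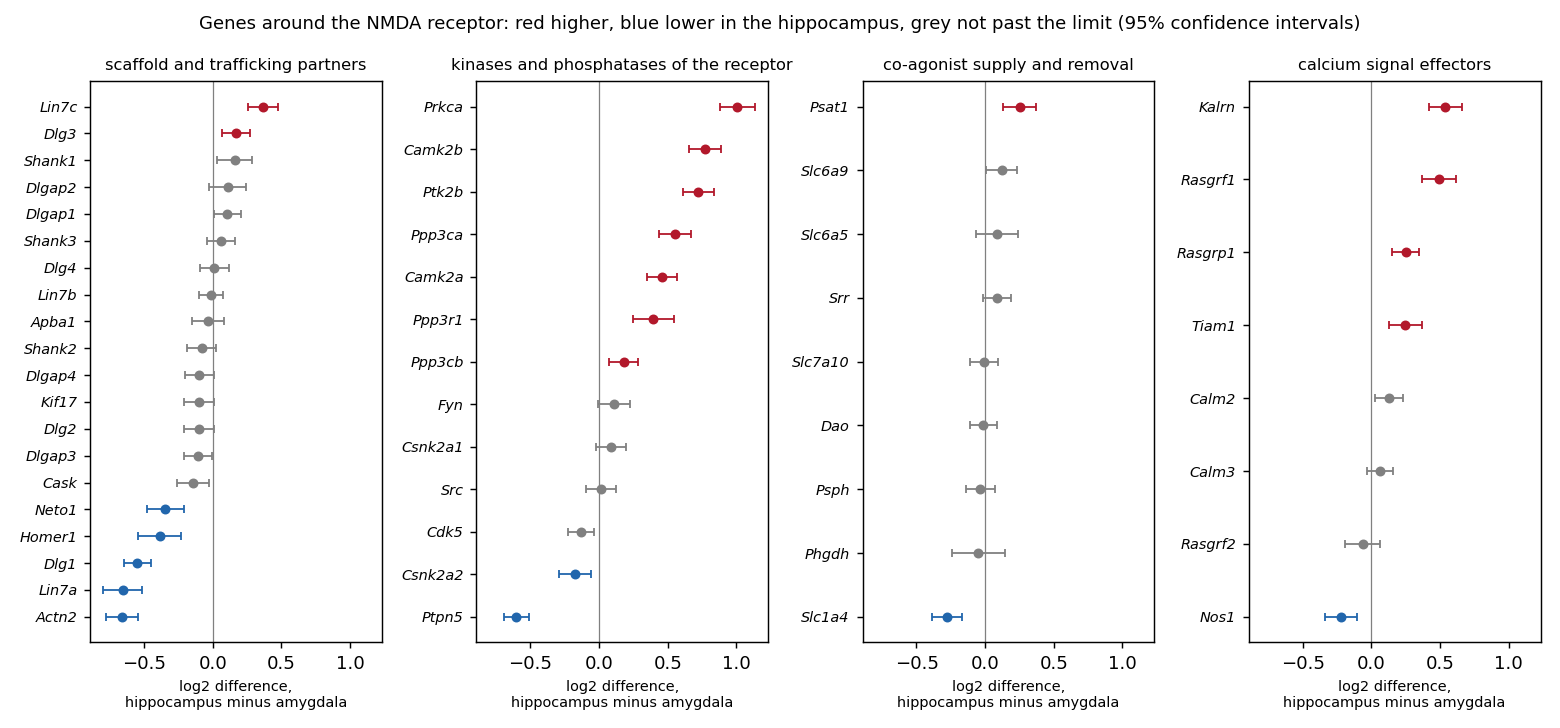
Log2 difference between hippocampus and amygdala for the measured genes of 4 lists around the NMDA receptor, as gene means with 95% confidence intervals from limma over 20 arrays. Red genes passed an adjusted p of 0.05 as higher in the hippocampus, blue ones as lower, and grey ones did not pass. Prkca (1.01), Camk2b (0.77) and Ptk2b (0.72) lie furthest to the right, Actn2 and Lin7a (both −0.66) furthest to the left.

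The marker lists moved between the regions beside the members. Of 11 measured markers of hippocampal neurons 8 were higher in the hippocampus, of 13 striatal markers 11 were lower (median −0.82), and of 12 markers of GABA neurons 9 were lower (median −0.34). Over all genes 10% passed as higher and 10.5% as lower. Within the amygdala the correlation of Grin3a with the mean of the GABA neuron markers was 0.87 over 10 arrays and within the hippocampus 0.85, while that with the striatal markers was 0.62 and 0.65. With the thalamic markers it was 0.88 (amygdala) and 0.06 (hippocampus), and with the 75th percentile of each array 0.81 and 0.57. These correlations are descriptions over arrays that share their time points and pools, and the part of cell composition in the region differences was not tested.

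The comparison of genotypes asked whether loss of the calcium-stimulated cyclases went with other levels of the receptor genes. None of the 6 members differed between DKO and WT mice past an adjusted p of 0.1 in either region, where 0.097% of transcript clusters passed in the amygdala and 0.118% in the hippocampus, among them Adcy1 and Adcy8. By limma the count was also 0 of 6 in each region at an unadjusted p under 0.05, which 6.82% of transcript clusters had in the amygdala against 11.4% in the hippocampus. By the methods' t-test after adjustment it was 0. In the amygdala the widest differences were those of Grin2a, −0.23 (confidence interval −0.53 to 0.07, adjusted p = 0.646), and Grin2b, −0.18 (confidence interval −0.36 to 0.01, adjusted p = 0.646). Both leaned on the 48 hr array of DKO mice, and without it they were −0.08 and −0.11. After a further quantile normalization they were −0.12 and −0.07. In the hippocampus Grin2a differed by −0.01 (confidence interval −0.22 to 0.19) and Grin2b by −0.01 (confidence interval −0.17 to 0.15).

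Grin3a differed by −0.11 in the amygdala (confidence interval −0.32 to 0.10), or −0.04 without the 48 hr array of DKO mice, and by −0.04 in the hippocampus (−0.21 to 0.13). Grin2c was 0.05 apart in the amygdala (−0.13 to 0.23) and −0.12 in the hippocampus (−0.24 to 0.003), the latter with an unadjusted p of 0.0548 and an adjusted p of 0.444 by limma. For Grin2d the differences were 0.005 and −0.01, and for Grin3b 0.06 and −0.03. No interval reached 1.5-fold in either direction. In DKO mice the mean of the striatal markers in the amygdala leaned lower and that of the thalamic markers in the hippocampus higher, with overlapping ranges. The part of these marker shifts in the genotype comparison of the members was not tested. The difference between the regions in the genotype effect passed for none of the 6, with 0.0104% of transcript clusters past the limit.

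**Figure D3:**
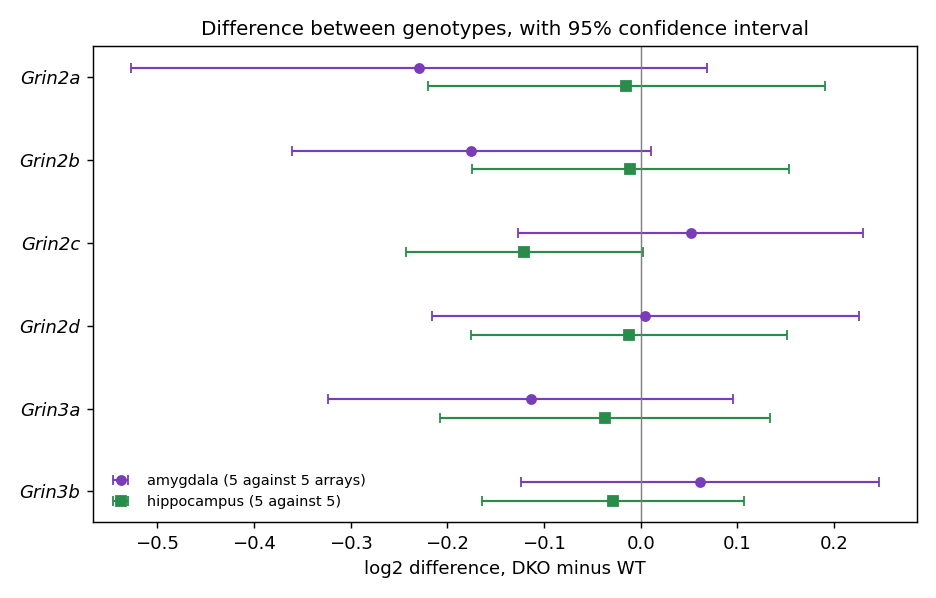
Log2 difference between DKO and WT mice for each measured subunit gene, with 95% confidence intervals from limma, in the amygdala (purple circles) and the hippocampus (green squares), 5 against 5 arrays each. All 12 intervals include 0, and the widest is that of Grin2a in the amygdala, from −0.53 to 0.07.

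The genes around the receptor gave the same count. As gene means, 0 of 20 scaffold and trafficking genes, 0 of 13 kinases and phosphatases, 0 of 9 co-agonist genes and 0 of 8 calcium effectors passed an adjusted p of 0.1 between genotypes in the amygdala or in the hippocampus, where 0.0451% and 0.0401% of all genes passed. At an unadjusted p under 0.05 by limma, 7 of the 50 genes were counted in the amygdala, 4 of them scaffold and trafficking genes, and 2 of 50 in the hippocampus, where 7.48% and 11.8% of all genes had such a p. The medians of the lists in the amygdala lay between −0.13 and −0.03 and in the hippocampus between −0.03 and 0.02, with −0.02 for all genes in both.

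In the order of the group means, neighbours were apart by more than the larger of their SDs only in a few places. For Grin2a that was the step from the DKO hippocampus (10.06) to the WT amygdala (9.19), and for Grin3a the step from the DKO amygdala (8.07) to the WT hippocampus (7.38). For Grin2b the groups ran from the WT hippocampus (10.03) and the DKO hippocampus (10.02) to the WT amygdala (9.80) and the DKO amygdala (9.63), and the last 2 steps exceeded the larger SD with overlapping values. For Grin2c, Grin2d and Grin3b no step did.

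Time after CF training was compared with baseline over the 4 groups and within each region. No member passed an adjusted p of 0.05 at any time point in any of these 12 comparisons, in which 0% (8 comparisons), 0.00347% (3 comparisons) or 0.0243% (1 comparison) of transcript clusters passed. Over the 4 groups the member changes lay between −0.10 and 0.13 at 1 hr and between −0.14 and 0.00 at 48 hr. In the amygdala at 48 hr Grin3a had a change of −0.40 (standard error 0.128, unadjusted p = 0.00935, adjusted p = 0.898 by limma), lower on both the WT array (−0.47) and the DKO array (−0.33) than at baseline. After a further quantile normalization the Grin3a change was −0.28. On these arrays the GABA neuron markers read 8.70 in WT mice (8.82 at baseline) and 8.57 in DKO mice (8.65 at baseline). The thalamic markers read 7.19 in WT mice (7.29 at baseline) and 7.13 in DKO mice (7.21 at baseline). The part of these marker shifts in the Grin3a change was not tested. In the hippocampus at 1 hr Grin3b had a change of −0.22 (unadjusted p = 0.0447, adjusted p = 0.836). The changes of Grin3a and Grin3b both failed the correction over all transcript clusters, and no other member change from baseline had an unadjusted p under 0.05 in these comparisons. Such a p by limma occurred in 1.28% to 6.16% of transcript clusters over the 12 comparisons.

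At 48 hr the Grin2a values of the genotypes lay on opposite sides of their baselines. Against its own baseline array the change was 0.40 in the WT amygdala, −0.81 in the DKO amygdala, 0.17 in the hippocampus of WT mice and −0.34 in that of DKO mice, positive on both WT arrays and negative on both DKO arrays. The markers of hippocampal neurons, a region where Grin2a is higher, read 7.27 on the WT amygdala array at 48 hr against 6.78 at baseline, 6.84 against 6.97 in DKO mice, 7.86 against 7.88 in the WT hippocampus and 7.69 against 7.93 in the hippocampus of DKO mice, where the thalamic markers read 8.16 against 7.90. The correlation of Grin2a with the hippocampal markers was 0.54 over the amygdala arrays and 0.76 over the hippocampus arrays. With the astrocyte markers it was 0.89 and 0.10, and with the 75th percentile of each array 0.78 and 0.71. The part of these marker shifts in the Grin2a changes was not tested. The difference between genotypes in the change was −0.86 (standard error 0.166, confidence interval −1.21 to −0.50, unadjusted p = 0.000119), but with an adjusted p of 0.324 it failed the correction by limma, as did all transcript clusters at that time point (0%). This fit took the arrays of both regions as replicates of a genotype and time point, though the changes were larger in the amygdala. Whether both regions came from the same mice is not stated. Over all transcript clusters the median difference between genotypes in the change was −0.15, and 3767 of them had an unadjusted p under 0.05. Grin3b had a difference of −0.38 at 48 hr (unadjusted p = 0.0276, adjusted p = 0.349), which was −0.18 after a further quantile normalization, and Grin2b of −0.31 (unadjusted p = 0.06). At 0 hr, 1 hr and 1 wk, where 0% of transcript clusters passed, no member had an unadjusted p under 0.05. Such a p by limma occurred in 5.1%, 1.92% and 17.9% of transcript clusters, in that order.

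Set against the baseline array of its region and genotype, 1 of 96 member changes reached 1.5-fold, where 1.15% of all changes did over the 16 arrays. It was Grin2a on the DKO amygdala array at 48 hr, 1.75-fold lower, on an array where 1.07% of transcript clusters were lower by 1.5-fold or more, 0.354% higher and the median of all changes was −0.13. No replicate exists for such a change. On that array Grin2b, Grin2d, Grin3a and Grin3b also had their lowest values of the 5 DKO amygdala arrays, and so did the means of the scaffold list (8.37, against 8.65 at its highest), the excitatory neuron markers (8.47 against 8.90), the astrocyte markers (8.07 against 8.37), the oligodendrocyte markers (7.83 against 8.24) and the microglia markers (7.21 against 7.45). The striatal markers (8.35), the choroid plexus markers (7.74) and the olfactory receptor median (4.80) were within the range of the other 4 arrays. The part of these shifts in the Grin2a value was not tested. Elsewhere the greatest changes were those of Grin3a, 0.47 in the WT hippocampus at 1 wk and −0.47 in the WT amygdala at 48 hr. The WT hippocampus baseline array, the reference of the former, had the lowest 75th percentile (7.86) and the lowest mean of GABA neuron markers (8.26) of the hippocampus arrays. The part of this in the Grin3a change was not tested.

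**Figure D4:**
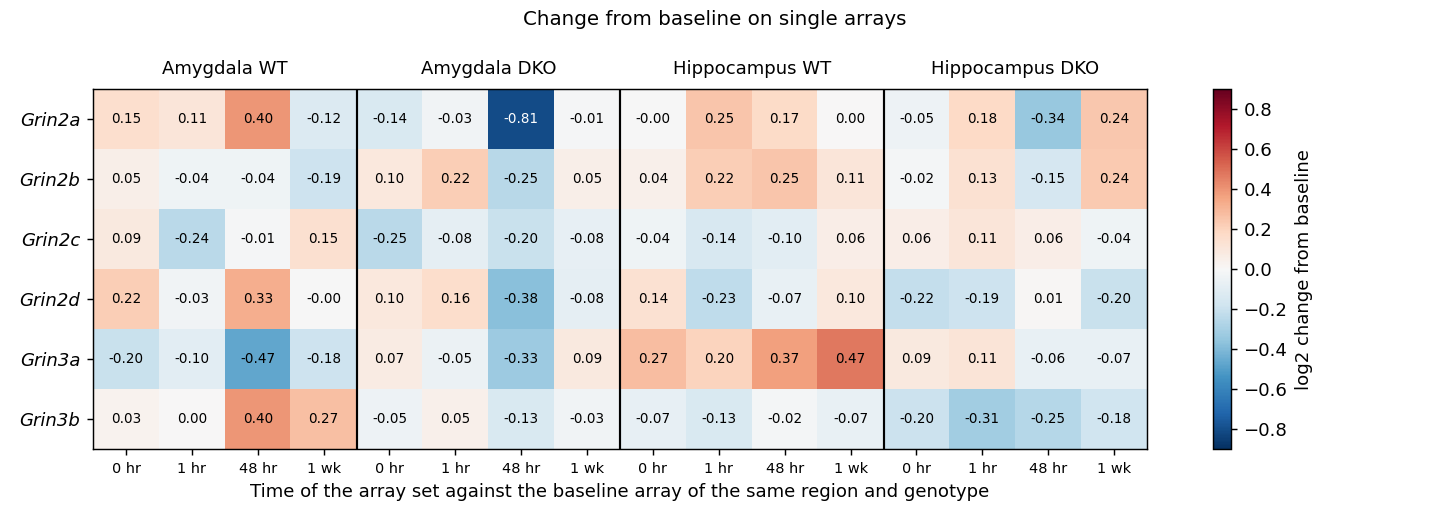
Log2 change of each measured subunit gene on single arrays against the baseline array of the same region and genotype, with red for higher, blue for lower and the value printed in each cell. The darkest cell is Grin2a on the DKO amygdala array at 48 hr (−0.81), the only one of 96 past 1.5-fold.

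The later time points, 48 hr and 1 wk, were also set against the first 3 arrays of each group. In the WT amygdala, where 6.91% of all transcript clusters passed (5.32% of all as higher), 1 of the 6 members did. Grin3b read 6.14 at baseline, 6.17 at 0 hr, 6.14 after 1 hr, 6.54 after 48 hr and 6.42 after 1 wk, so that both late arrays lay above the early ones. The difference was 0.32 (standard error 0.089, confidence interval 0.14 to 0.51, adjusted p = 0.0383 by limma), or 1.25-fold, against a median of 0.05 over all transcript clusters. It rested on single arrays and on the scaling: the adjusted p was 0.105, 0.125, 0.201 and 0.152 without the WT amygdala array at baseline, 1 hr, 48 hr and 1 wk, and after a further quantile normalization the difference was 0.18 (adjusted p = 0.199).

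On the DKO amygdala arrays Grin3b read 6.38, 6.33, 6.42, 6.24 and 6.35 from baseline to 1 wk, with no such step. The change of DKO mice minus that of WT mice was −0.41 (standard error 0.126, adjusted p = 0.0699), which missed the limit in a comparison where 3% of transcript clusters passed, and it was −0.19 after a further quantile normalization. The median of the olfactory receptor genes on the WT amygdala arrays was 4.69, 4.74, 4.61, 4.79 and 4.84 from baseline to 1 wk, also higher on both late arrays. The mean of the striatal markers was lower on the late arrays (8.98, 8.67, 8.95, 8.48 and 8.42), while the hippocampal markers read 6.78, 6.91, 6.79, 7.27 and 6.92. Over the 10 amygdala arrays the correlation of Grin3b was 0.69 with the olfactory median, 0.83 with the array median, 0.86 with the hippocampal markers and −0.73 with the striatal markers, and the part of these in the Grin3b value was not tested.

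In the other 3 groups 0% of transcript clusters passed in this comparison, no member among them. In the DKO amygdala Grin2d had a fitted difference of −0.31 (unadjusted p = 0.0239, adjusted p = 0.535), which was −0.16 without the 48 hr array, and in the WT hippocampus Grin3a had one of 0.26 (unadjusted p = 0.0333, adjusted p = 1). Neither is a call. In the hippocampus the difference between genotypes in this change passed for 0% of transcript clusters, with −0.40 for Grin3a (unadjusted p = 0.0247).

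Among themselves, Grin2a and Grin2b varied together, with a Pearson correlation of 0.92 over the 20 arrays and of 0.84 after the region mean was subtracted. Grin2a and Grin3a were at −0.81 over the 20 arrays and at 0.30 within regions. The genes most like Grin2a over the 20 arrays were Chn1, a Rac GTPase-activating protein of neurons (0.983), Camk2a, the alpha subunit of CaM kinase II (0.981), and Epha6, an ephrin receptor (0.981). For Grin2b they were Slc16a7, a monocarboxylate carrier (0.953), Herc3 (0.950) and Hcfc2 (0.947), and for Grin3a Fhl1 (0.973), Zdbf2 (0.970) and Ddc, the aromatic amino acid decarboxylase (0.969). For the other members the nearest genes were Fam167b for Grin2c (0.864), Asb6 for Grin2d (0.838) and Fcrl5 for Grin3b (0.881).

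After subtraction of the region mean, other genes stood nearest to the members that differ between regions. They were Tsr1 (0.910), Cnksr2 (0.909) and Dnm1, the neuronal dynamin (0.902), for Grin2a. For Grin2b they were Dcaf6 (0.937), Vps26a, a retromer subunit (0.930), and Dcaf7 (0.916), and for Grin3a Dcun1d1 (0.841), Jmjd8 (0.834) and Rbm34 (0.832). The nearest genes of the members with no region difference past the limit were Izumo4 (0.862), Fam167b and Scrt2 for Grin2c, Asb6 (0.817), Stat5b and Wrnip1 for Grin2d, and Fcrl5 (0.882), Cd37 and Efna4 for Grin3b. These are the highest among the correlations with all genes that have a transcript cluster of their own, over 20 arrays that share regions, time points and scaling.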

How the data were processed

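Gene expression had been measured in 20 RNA pools on Affymetrix Mouse Gene 1.0 ST arrays. The authors processed the scans with RMA (background correction, quantile normalization and a summary per transcript cluster) in Expression Console, version not given in the sources used here, and deposited log2 values. The values were used as deposited, with no filter and no array left out. Quantile scaling across regions can hide a shift shared by all genes. Each array was grouped by region, genotype and time point from its label. Nothing states whether both regions came from the same mice.

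Groups were compared with limma 3.58.1 (lmFit and eBayes, R 4.3.3), with Benjamini-Hochberg adjustment over 28853 transcript clusters. Adjusted p-values under 0.1 for genotype and under 0.05 otherwise were taken as calls. For region and genotype, the 5 time points of a group served as replicates, so the spread holds any effect of time. For changes from baseline, the genotypes of a region or all groups of region and genotype served as replicates. For the genotype difference in these changes, the regions did. Late arrays were set against early ones within each group, with a spread shared by all groups. The p-values measure the spread between pools that is left after the terms of each fit. Single-array changes were counted at 1.5-fold with no test. Genes of several transcript clusters in the lists were averaged.

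The members, the gene lists and the split into early and late time points were chosen with earlier results of these data known. Named genes were all members, at most the 3 greatest changes past the limit per list and direction, and the 3 genes most correlated with each member. Dlg4 was named besides, after its values were seen. Alternatives were a further quantile normalization, median centring, a filter above the median, array weights, gene means, eBayes with trend and robust options, replicate blocks, the methods' t-test, and leaving out each array. Python 3.11.15, numpy 2.4.6, pandas 2.3.3 and matplotlib 3.10.9 made counts and plots. The number of arrays limits the precision.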

Additional observations from a re-analysis of the deposited data

Results flagged for a closer look

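In the DKO amygdala, the Grin2a value of 8.35 at 48 hr stood far below the other 4 arrays of the group, which read 9.02 to 9.16. Its gap to the nearest of them took up a share of 0.832 of the whole range, above Dixon's critical value of 0.71 for 5 arrays. No other of the 24 combinations of member and group did so. Chance flags about 1 in 20 such groups, and on this array 3.94% of all transcript clusters were set apart in this way (3.47% of all as the lowest of their group), against 0.416% to 2.43% on the other 19 arrays. The DKO hippocampus array at 48 hr had the next highest share and also the lowest Grin2a value of its group, 9.71.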

How the results depend on the processing

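The count of members past the limit stayed the same, or within 1.5 times, in 624 of 631 settings over 29 comparisons. In most of these comparisons the count was 0 and stayed 0, where few or no transcript clusters passed, so that figure says little about the calls. The region count among WT arrays was 2 or 3, which was taken as the same. The 7 settings that moved concern the late against early change in the WT amygdala, where 1 member passed. That count was 0 after a further quantile normalization, after median centring and with transcript clusters above the median level only, where Grin3b itself was left out, and it ranged from 0 to 1 when each array was left out, with 0 without the WT amygdala arrays at baseline, 1 hr, 48 hr and 1 wk. After median centring the Grin3b difference was 0.22 (adjusted p = 0.0955). Grin2b between regions in WT mice passed under a further quantile normalization (adjusted p = 0.00746), the filter (0.0313), the variance trend (0.0331), gene means (0.0471) and without the WT hippocampus array at baseline (0.0457). No value reversed among results that had passed.

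With genotype and time point as a replicate block, 3 members passed between regions, 2 among WT and 3 among DKO arrays, the same counts as without the block, and with time point as a replicate block 0 passed between genotypes. Deviations of the arrays of both regions with the same genotype and time point correlated between −0.39 and 0.53. Such deviations also hold effects of time and scaling, so they cannot show whether both regions came from the same mice. Grin2d and Grin3b lie near the array background, which limits what small changes of theirs can show.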
